A study of Homo sapiens with 12 samples.

Results

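MALAT1, NEAT1 and KCNQ1OT1 are long noncoding RNAs that stay in the nucleus, and all 3 lie on chromosome 11. They are 3 of the 27514 genes listed in the deposited expression table and were taken from it by symbol. They were chosen by their CPM, the measure of this table, as transcripts that rise after knockdown of MYCN, of HAND2 or of both. Their differences from the control are therefore given as descriptions with no test. MALAT1 stood above the control after every knockdown and KCNQ1OT1 after the 2 knockdowns that included HAND2. The choice was made on these same values, so they are no separate support for a rise. NEAT1 was barely detected and showed no rise.

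The cells were IMR32, a human neuroblastoma line with extra copies of MYCN. RNA was measured by sequencing of libraries made from total RNA in 12 samples, 3 in each of 4 groups, and whether poly(A) RNA was selected is not given in the sources used here. One group had the control siRNA (siCtrl), another the MYCN siRNA labelled siMYCN_2, another the HAND2 siRNA labelled siHAND2_3, and the last had both, labelled siM2+siH2_3 and called the combined knockdown here. All 4 groups shared the line, RPMI medium with fetal calf serum, electroporation with a Nucleofector and 72 h of culture afterwards. The labels do not say that the samples of a group came from separate cultures, so p-values measure only the spread between these samples. Each knockdown used a single labelled siRNA, in a single line.

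MYCN and HAND2 are transcription factors of the sympathetic nerve lineage. MALAT1 gathers in nuclear speckles, bodies rich in splicing factors, and NEAT1 is the scaffold on which paraspeckles form. KCNQ1OT1 is read from the paternal copy of an imprinted region, against the direction of KCNQ1, and silences neighbouring genes on that copy by recruiting repressive chromatin complexes. MALAT1 and the long form of NEAT1 end without a poly(A) tail. RNase P releases a tRNA-like RNA from each, and the new 3′ end is protected by a triple helix of U-rich stretches folded around an A-rich one.

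The 3′ ends are shown because they set 2 of the transcripts apart from the third. Each line gives 120 bases of the GRCh37 genome, 5′ to 3′ on the transcript's strand, with 3 words in capitals: TTTCTTTT and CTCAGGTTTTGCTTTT, which are U-rich in RNA, and AAAAAGCAA, which is A-rich. These are the stretches of at least 8 bases that the MALAT1 and NEAT1 lines share. For MALAT1 the bases just before the mascRNA row are given (chr11:65273468-65273587, plus strand), for NEAT1 the last of the listed span (chr11:65212890-65213009, plus strand) and for KCNQ1OT1 the last of its span (chr11:2629558-2629677, minus strand). The fourth line is mascRNA, the 58-base tRNA-like RNA released from MALAT1 (chr11:65273588-65273645, plus strand).
MALAT1: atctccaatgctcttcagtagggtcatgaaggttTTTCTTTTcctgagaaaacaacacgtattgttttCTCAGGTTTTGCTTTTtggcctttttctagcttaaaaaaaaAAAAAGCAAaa
NEAT1: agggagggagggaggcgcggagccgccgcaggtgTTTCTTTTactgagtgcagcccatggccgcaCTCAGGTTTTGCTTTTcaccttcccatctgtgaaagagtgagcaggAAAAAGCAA
KCNQ1OT1: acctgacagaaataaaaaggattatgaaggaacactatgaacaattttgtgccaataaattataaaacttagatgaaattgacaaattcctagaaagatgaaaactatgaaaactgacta
mascRNA: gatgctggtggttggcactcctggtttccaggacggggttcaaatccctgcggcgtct

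MALAT1 and NEAT1 each held the 3 words once, in the same order, and KCNQ1OT1 held 0 of them. The words were defined by the MALAT1 and NEAT1 ends, so their presence there follows from the choice. Among the 1534 listed genes of chromosome 11 that span at least 120 bases, TTTCTTTT stood in the last 120 bases of 36 (2.35%), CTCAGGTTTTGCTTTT in 1 (0.0652%), which was NEAT1, and AAAAAGCAA in 4 (0.261%). Only the transcript's strand was searched, the words do not overlap, and the listed end of MALAT1 lies beyond mascRNA. A match is a description of letters and not of a structure. The spans differed in length: MALAT1 covered 8775 bases at 40.4% GC (chr11:65265209-65273983), NEAT1 22741 bases at 44.1% (chr11:65190269-65213009) and KCNQ1OT1 91671 bases at 43.7% (chr11:2629558-2721228). MALAT1 and NEAT1 are neighbours on the plus strand, and MALAT1 starts 52200 bases past the last base of NEAT1.

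The CPM of a gene are its reads scaled to 1 M reads of the library. Depth, estimated from the commonest step between low CPM values, was 31.6 to 64.2 M reads per sample, and 3 reads corresponded to 0.0468 to 0.0949 CPM, a floor for counting error only. The listed genes held 65.1% ± 0.736 of the reads with siCtrl, 62.4% ± 0.979 with siMYCN, 59.4% ± 2.39 with siHAND2 and 51.4% ± 7.04 with both siRNAs (SD, n = 3). The remaining reads are called unlisted here. MYCN itself fell from 1009 CPM ± 42.6 in siCtrl to 682 ± 22.8 with its own siRNA and 482 ± 64.3 with both, and had 849 ± 48.7 with siHAND2 (limma adjusted p = 0.086). HAND2 fell from 239 CPM ± 15.3 to 62.3 ± 7.06 with its own siRNA and 73.5 ± 11.1 with both, and rose to 326 ± 7.50 with siMYCN (SD, n = 3, limma adjusted p = 0.0062). Of 10 sympathoblast markers, 9 had a mean of at least 1 CPM, and their summed level was 566 to 594 CPM with siCtrl, 752 to 781 with siMYCN, 686 to 739 with siHAND2 and 523 to 823 with both siRNAs. All samples of both single knockdowns lay above siCtrl in this sum. Of 7 mesenchymal markers, 3 had such a mean, and their sum went from 257 to 285 CPM in siCtrl to 212 to 262 with siMYCN, 121 to 148 with siHAND2 and 71.1 to 129 with both. The part of either shift in the results was not tested. In bulk samples fewer cells of a type and less RNA per cell cannot be told apart.

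MALAT1 was among the most abundant transcripts of these cells, at rank 26 of 27514 genes by mean CPM. Its siCtrl samples had 498, 690 and 543 CPM, and the siMYCN samples 830, 1062 and 1148 CPM. The siHAND2 samples had 1366, 1004 and 1197 CPM, and the combined knockdown samples 1254, 1758 and 1519 CPM. All 9 knockdown samples stood above all 3 siCtrl samples, a pattern shared by 9.87% of the 12680 genes with a mean of at least 1 CPM. The range of the siHAND2 samples overlapped that of siMYCN and that of the combined knockdown.

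The MALAT1 means were 577 CPM ± 100 with siCtrl, 1013 ± 164 with siMYCN, 1189 ± 181 with siHAND2 and 1511 ± 252 with both siRNAs (SD, n = 3), or 176%, 206% and 262% of siCtrl. By CPM the transcript moved from rank 134 in siCtrl to 25, 28 and 15 in the knockdown groups. On the log2(CPM + 1) scale the differences from siCtrl were 0.81, 1.04 and 1.39 with an SE of 0.15. They were larger than those of 97.1%, 98.2% and 98.0% of the genes tested, where the median gene stood at 0.01, −0.14 and −0.28. These 3 comparisons share the siCtrl samples. Without combined replicate 3, the library with the lowest share of listed reads, the combined difference was 1.38.

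**Figure D1:**
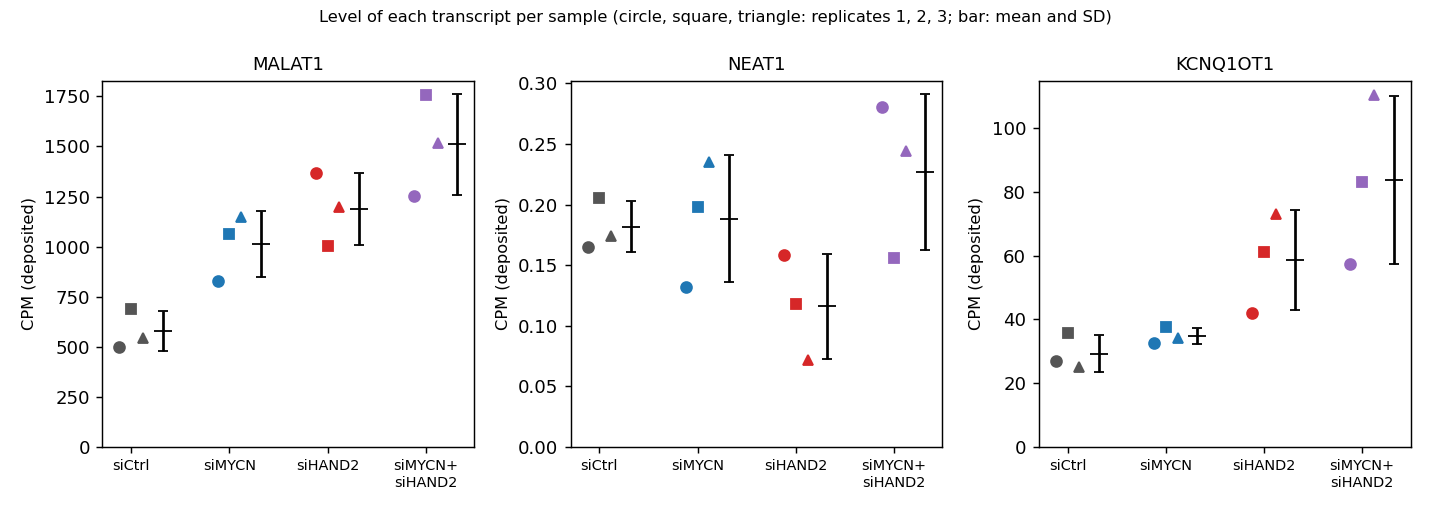
Deposited CPM (y axis) of MALAT1, NEAT1 and KCNQ1OT1 in each of the 4 groups (x axis), with 1 symbol per sample and a bar for the mean and SD of 3 samples. The 9 knockdown samples of MALAT1 sit between 830 and 1758 CPM, all above siCtrl, while NEAT1 stays between 0.0715 and 0.281 CPM in every sample.

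The transcripts were chosen for their rise over siCtrl after the knockdowns. Comparisons between knockdowns reuse those knockdown samples, so for MALAT1 and KCNQ1OT1 their p-values are not independent of the choice. MALAT1 was higher in the combined knockdown than in siMYCN by 0.58 on the log2 scale (SE 0.15, 95% interval 0.26 to 0.89, limma adjusted p = 0.0024). Of all genes tested, 58.9% were called in that comparison, at a limma adjusted p under 0.05, with 8.92% called higher and 50% lower. The call was lost when levels were set against unlisted reads (0.22, limma adjusted p = 0.34) and without the filter on low levels (limma adjusted p = 0.076). Against siHAND2 the combined knockdown was higher by 0.34 (95% interval 0.03 to 0.66, unadjusted), which missed the threshold (limma adjusted p = 0.075, with 40.3% of genes called). The difference passed without siHAND2 replicate 1 (0.45, limma adjusted p = 0.038) or without combined replicate 1 (0.47, limma adjusted p = 0.023), and after median-ratio rescaling (0.54, limma adjusted p = 0.027). It also passed with the replicate number as a block in the fit (0.34, limma adjusted p = 0.031). MALAT1 in siMYCN and siHAND2 differed by −0.23 (95% interval −0.55 to 0.08, limma adjusted p = 0.25, with 35% of genes called), so no order between the single knockdowns was established. The combined difference from siCtrl was smaller than the sum of the single ones by 0.47, a value given with no test. Written as an interaction this is −0.47, where the median gene tested stood at −0.18. MALAT1 and the median gene had −0.28 and −0.01 after median-ratio rescaling, and −0.61 and −0.33 against unlisted reads. Over all genes 4.01% were called in that interaction, with 0.355% called higher and 3.65% lower.

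The MALAT1 reads cannot be separated from those of TALAM1, its antisense transcript, since no source says whether strand was used when reads were counted. TALAM1 is listed on the opposite strand (chr11:65266783-65274903) and overlaps 7201 bases, 82.1% of the MALAT1 span. It stood at 372 CPM ± 123 with siCtrl, 627 ± 136 with siMYCN, 833 ± 37.2 with siHAND2 and 859 ± 298 with both siRNAs (SD, n = 3). Per sample, TALAM1 had between 45.7% and 82.2% of the CPM of MALAT1, and the 4 groups overlapped in this ratio. The summed CPM of both was 949 ± 223 in siCtrl and 1640 ± 298, 2022 ± 206 and 2369 ± 549 in the knockdown groups (SD, n = 3). As a sum, the combined knockdown was above siMYCN by 0.52 (limma adjusted p = 0.010) and differed from siHAND2 by 0.21 (limma adjusted p = 0.34). The mascRNA row was at 0 reads in all 12 samples, which by counting error alone allows at most 0.0949 CPM. Whether the libraries held RNAs this short was not tested, so this sets no limit on mascRNA in the cells.

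NEAT1 was at the edge of detection, with 3 to 18 estimated reads per sample. Its siCtrl samples had 0.165, 0.206 and 0.174 CPM, and the siMYCN samples 0.132, 0.198 and 0.235 CPM. The siHAND2 samples had 0.158, 0.118 and 0.0715 CPM, and the combined samples 0.281, 0.156 and 0.244 CPM. The siMYCN and combined groups overlapped siCtrl, and the 3 siHAND2 samples lay below all siCtrl samples, as did those of 45% of the 12680 genes with a mean of at least 1 CPM. The siHAND2 samples rest on 5, 4 and 3 estimated reads against 6, 9 and 10 in siCtrl, and the 2 groups overlapped after median-ratio or listed-sum rescaling. NEAT1 failed the filter of a mean of 1 CPM, so 2 of the 3 transcripts were tested. The row of MIR612, a microRNA inside the span of NEAT1, was at 0 reads in all 12 samples, with the same limit as for mascRNA.

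Per kilobase of span, which allows levels of different genes to be compared, MALAT1 had 65.8 CPM ± 11.5 in siCtrl and 172 ± 28.7 in the combined knockdown (SD, n = 3). KCNQ1OT1 had 0.319 CPM ± 0.0626 and 0.912 ± 0.289, and NEAT1 had 0.00799 CPM ± 0.000927 and 0.00997 ± 0.00283 on the same scale. The order MALAT1, KCNQ1OT1, NEAT1 held in all 12 samples.

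KCNQ1OT1 was expressed at a moderate level, at rank 2505 by mean CPM. Its siCtrl samples had 27.1, 35.8 and 24.9 CPM, and the siMYCN samples 32.7, 37.5 and 34.2 CPM, so these 2 groups overlapped. The siHAND2 samples had 41.9, 61.2 and 72.9 CPM, and the combined samples 57.5, 83.0 and 110 CPM. All samples of these 2 groups lay above all siCtrl samples, and the groups overlapped each other. Of the genes tested, 17.8% had all siHAND2 samples above all siCtrl samples, and 16.7% had all combined samples above them.

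The KCNQ1OT1 means were 29.3 CPM ± 5.74 with siCtrl, 34.8 ± 2.45 with siMYCN, 58.7 ± 15.6 with siHAND2 and 83.6 ± 26.5 with both siRNAs (SD, n = 3), or 119%, 201% and 286% of siCtrl. The log2(CPM + 1) differences from siCtrl were 0.26, 0.96 and 1.45 with an SE of 0.18, larger than those of 77.9%, 97.7% and 98.2% of genes tested. Without combined replicate 3 the last difference was 1.23. By CPM the transcript moved from rank 4821 in siCtrl to 4119, 2107 and 1088.

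Between knockdowns, with the same limit as for MALAT1, KCNQ1OT1 was higher in the combined knockdown than in siMYCN by 1.20 (SE 0.18, 95% interval 0.82 to 1.58, limma adjusted p = 6.5e-06). It was lower in siMYCN than in siHAND2 by 0.70, written as a difference of −0.70 (95% interval −1.08 to −0.32, limma adjusted p = 0.0042), where 8.98% of genes were called lower. That call was lost without the filter on low levels (limma adjusted p = 0.14). The combined knockdown exceeded siHAND2 by 0.49 (95% interval 0.11 to 0.87, limma adjusted p = 0.036), where 8.75% of genes were called higher. This last call was lost without siHAND2 replicate 1 (0.27, limma adjusted p = 0.25), siHAND2 replicate 2 (0.54, limma adjusted p = 0.051), combined replicate 2 (0.47, limma adjusted p = 0.091) or combined replicate 3 (0.27, limma adjusted p = 0.23). It was also lost against unlisted reads (0.24, limma adjusted p = 0.34) and without the filter (limma adjusted p = 0.31). The combined difference from siCtrl exceeded the sum of the single ones by 0.23, given with no test, where the median gene tested stood at −0.18. KCNQ1OT1 and the median gene had 0.42 and −0.01 after median-ratio rescaling, and 0.09 and −0.33 against unlisted reads.

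KCNQ1OT1 lies wholly inside KCNQ1, on the opposite strand. KCNQ1, a potassium channel gene, was at 0 reads in 9 samples and at most 0.0295 CPM in the others. As a percentage of MALAT1 CPM, KCNQ1OT1 stood at 5.07% ± 0.435 with siCtrl, 3.48% ± 0.481 with siMYCN, 5.08% ± 1.75 with siHAND2 and 5.52% ± 1.51 with both siRNAs (SD, n = 3). The siMYCN samples lay below all siCtrl samples in this ratio, and the other 2 groups overlapped siCtrl.

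The share of unlisted reads moved with both transcripts, and its part in the differences was not tested. Unlisted reads made up 34.2% to 35.7% of the libraries with siCtrl, 36.7% to 38.7% with siMYCN, 38.6% to 43.2% with siHAND2 and 41.6% to 55.7% with both siRNAs. The siHAND2 samples and the combined samples each followed the same order in KCNQ1OT1 CPM as in unlisted share, while MALAT1 did not in either group. In siCtrl and in siMYCN it was the reverse: MALAT1 CPM followed the order of unlisted share and KCNQ1OT1 CPM did not. Per M unlisted reads, KCNQ1OT1 had 83.7 ± 14.8 with siCtrl, 92.4 ± 6.52 with siMYCN, 144 ± 31.3 with siHAND2 and 169 ± 30.1 with both siRNAs (SD, n = 3). Here too all siHAND2 and combined samples lay above siCtrl, at 172% and 202% of its mean. The share of all genes that did so was not computed on this scale.

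**Figure D2:**
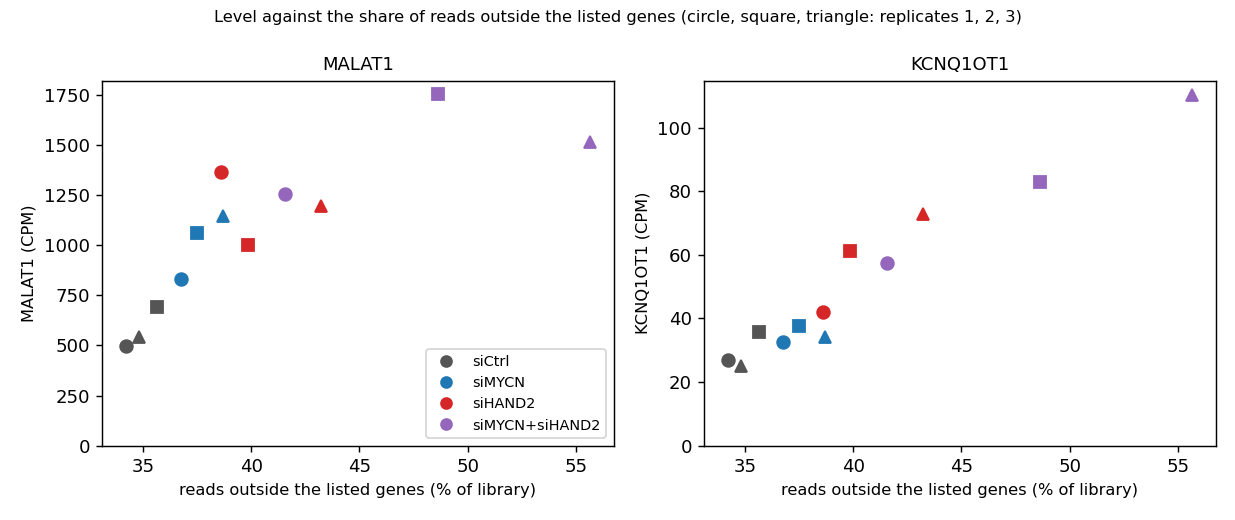
CPM of MALAT1 and KCNQ1OT1 (y axis) against the percentage of each library's reads outside the listed genes (x axis), with 1 symbol per sample and colours for the 4 groups. The combined knockdown sample with the highest unlisted share, 55.7%, also has the highest KCNQ1OT1 level, 110 CPM, but not the highest MALAT1 level.

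Per M unlisted reads, MALAT1 had 1650 ± 252 with siCtrl, 2686 ± 376 with siMYCN, 2941 ± 530 with siHAND2 and 3121 ± 452 with both siRNAs (SD, n = 3), and all 9 knockdown samples stayed above siCtrl. The share of all genes with that pattern was not computed on this scale. There the median gene tested stood at log2 differences from siCtrl of −0.10, −0.35 and −0.74. Per M listed reads its means were 888 ± 165, 1628 ± 287, 2001 ± 293 and 2999 ± 738 (SD, n = 3). The direction was thus the same on each of the 4 scales computed, and the combined mean ranged from 189% to 341% of siCtrl. For KCNQ1OT1 the combined mean ranged from 202% to 382%, and siMYCN overlapped siCtrl on all 4.

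**Figure D3:**
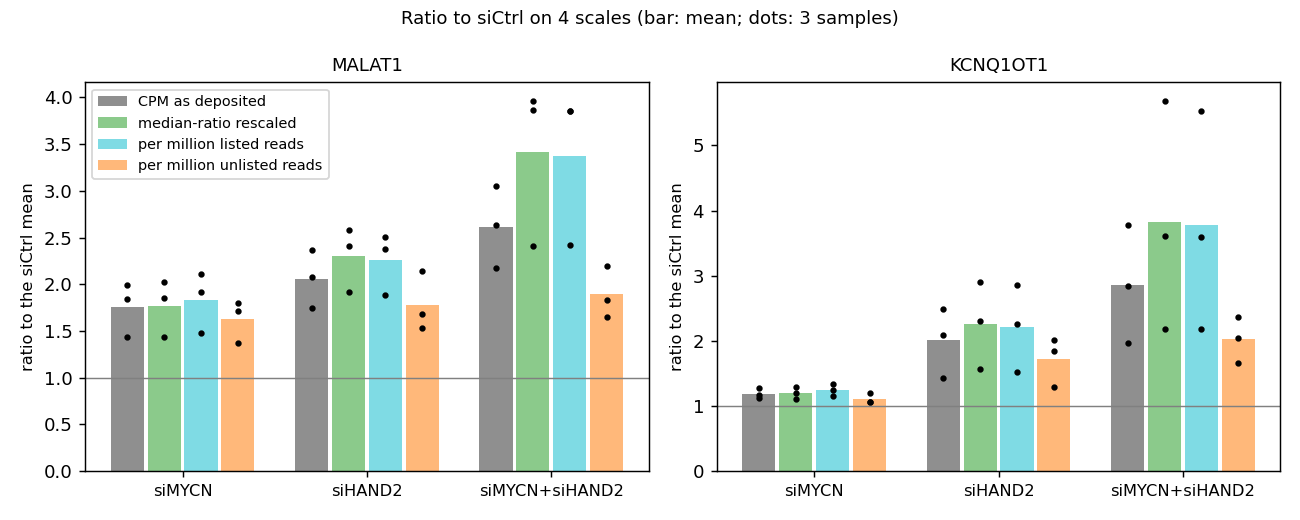
Ratio to the siCtrl mean (y axis) for MALAT1 and KCNQ1OT1 in the 3 knockdown groups (x axis) on 4 scales: CPM, CPM after median-ratio rescaling, per M listed reads and per M unlisted reads. Bars are means and dots the 3 samples, and the line at 1 marks siCtrl. The bars for the combined knockdown run from 1.89 to 3.41 for MALAT1 and from 2.02 to 3.82 for KCNQ1OT1.

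The genes most like each transcript were ranked by Pearson's r of log2(CPM + 1) over the 12 samples, among 10191 genes with a mean of at least 5 CPM. The r values describe samples that share groups, libraries and depth, and carry no test. MALAT1 was most like RNR2 (r = 0.96), the mitochondrial 16S ribosomal RNA, followed by ADGRL3, an adhesion receptor (0.95), DGKI, a diacylglycerol kinase (0.95), SCN9A, a sodium channel (0.94), and HECTD4 (0.94). RNR2 had 596 CPM ± 87.9 in siCtrl and 1036 ± 140, 1268 ± 354 and 1674 ± 301 in the knockdown groups (SD, n = 3). Both RNR2 and MALAT1 peaked in replicate 1 of siHAND2 and replicate 3 of siMYCN. In siCtrl and in the combined knockdown MALAT1 peaked in replicate 2 and RNR2 in replicate 3. TALAM1 was at place 15 (0.93) and KCNQ1OT1 at place 437 (0.80). After median-ratio rescaling HEXIM1 came first (0.98) and RNR2 next (0.98).

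KCNQ1OT1 was most like the long noncoding RNA LINC01004 (r = 0.96), then TTN, the muscle protein titin (0.95), STARD4-AS1 (0.95) and, at place 5, AFAP1-AS1 (0.94), with MALAT1 at place 128. LINC01004 had 5.58 CPM ± 0.937 with siCtrl, 7.02 ± 0.457 with siMYCN, 9.60 ± 2.15 with siHAND2 and 13.7 ± 4.35 with both siRNAs (SD, n = 3). TTN had 23.2 CPM ± 3.22, 29.3 ± 4.24, 39.1 ± 6.69 and 44.0 ± 11.2 in the same order. LINC01004 and TTN also led the list after median-ratio rescaling.

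Proteins that work with these transcripts were read from fixed lists, against the share of all genes called. Of all genes tested, 33.7% were called with siMYCN against siCtrl, 42.7% with siHAND2 and 67.4% with both siRNAs, where 17.4% were called higher and 50.1% lower. After median-ratio rescaling, which brings the median gene close to 0, 70.7% were called in the combined knockdown, 37.7% higher and 33% lower, and 47.9% in siMYCN. With siMYCN 17.4% were called higher and 16.3% lower as deposited, and 25.4% and 22.5% after rescaling. In siHAND2 it was 12.3% higher and 30.4% lower as deposited, and 25.9% and 24.9% after rescaling. The lists hold few genes, and their counts are descriptions. Without combined replicate 3, a setting added after seeing the data, the counts of genes lower in the combined knockdown were the same for the speckle, paraspeckle, 3′ end and repressor lists (22, 24, 26 and 11). In the single knockdowns the same setting raised the counts called lower for the speckle, paraspeckle, 3′ end and repressor lists. With siMYCN they went from 5 to 11, 2 to 6, 14 to 16 and 2 to 3 in that order. With siHAND2 they went from 16 to 21, 6 to 8, 18 to 23 and 5 to 8. Over all 12680 genes tested, calls in either direction also rose in that setting, from 4273 to 5756 with siMYCN and from 5411 to 6941 with siHAND2.

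The partners of MALAT1 in nuclear speckles were mostly lower with both siRNAs, and with siHAND2 as deposited but not after median-ratio rescaling. Of 28 speckle protein genes, 5 were called lower and 0 higher with siMYCN, 16 lower and 0 higher with siHAND2, and 22 lower and 1 higher with both. After rescaling the counts were 12, 12 and 19 lower, with 3 higher in the combined knockdown. Their median log2 difference in the combined knockdown was −0.61, and that of all genes −0.28. SRSF1, a splicing factor that binds MALAT1, went from 626 CPM in siCtrl to 317 in the combined knockdown, a difference of −0.98 (SE 0.11, limma adjusted p = 3.3e-08). SRSF2 fell by 1.31 (limma adjusted p = 9.9e-11), and SRSF7 and U2AF2, also splicing factors, by 1.01 and 1.03. The gene called higher was CLK1, a kinase of splicing factors, named after its value was seen.

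Factors that make the MALAT1 3′ end or degrade nuclear RNA were mostly lower with siHAND2 and with both siRNAs. Of 28 such genes tested, 14 were called lower with siMYCN, 18 with siHAND2 and 26 with both siRNAs, with 0 higher in each. After rescaling the counts were 16, 16 and 24 lower, with 1 higher in siMYCN. METTL16, a methyltransferase that binds the MALAT1 triple helix, had 49.4 CPM ± 2.33 with siCtrl, 33.6 ± 0.787 with siMYCN, 38.9 ± 0.830 with siHAND2 and 23.9 ± 4.77 with both siRNAs (SD, n = 3). ELAC2, the RNase Z that trims the tRNA-like product, fell by 0.41 with siMYCN, 0.48 with siHAND2 and 1.08 with both siRNAs (limma adjusted p = 0.012, 0.0028 and 2.3e-08). The exosome subunit genes EXOSC5, EXOSC8, EXOSC9 and EXOSC7 fell by 1.53, 1.34, 1.30 and 1.23 in the combined knockdown.

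Paraspeckle protein genes, the partners of NEAT1, were mostly lower in the combined knockdown. Of 31 tested, 1 was called higher and 2 lower with siMYCN, 1 and 6 with siHAND2, and 1 and 24 with both. After rescaling the counts were 2 higher and 6 lower with siMYCN, 6 and 6 with siHAND2, and 6 and 19 with both. SFPQ, a core paraspeckle protein, had 375 CPM ± 13.6 in siCtrl and 226 ± 50.8 in the combined knockdown, a difference of −0.75 (limma adjusted p = 1.5e-05). NONO, its partner, had a difference of −0.45 (limma adjusted p = 0.0047) that became −0.09 after rescaling (limma adjusted p = 0.23). PSPC1, RBM14 and HNRNPK, all needed for or found in paraspeckles, fell by 0.56, 0.81 and 0.67. DAZAP1, HNRNPF and RBMX, RNA-binding proteins, fell by 1.16, 1.10 and 0.90. The gene called higher in the combined knockdown was SS18L1, named after its value was seen.

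**Figure D4:**
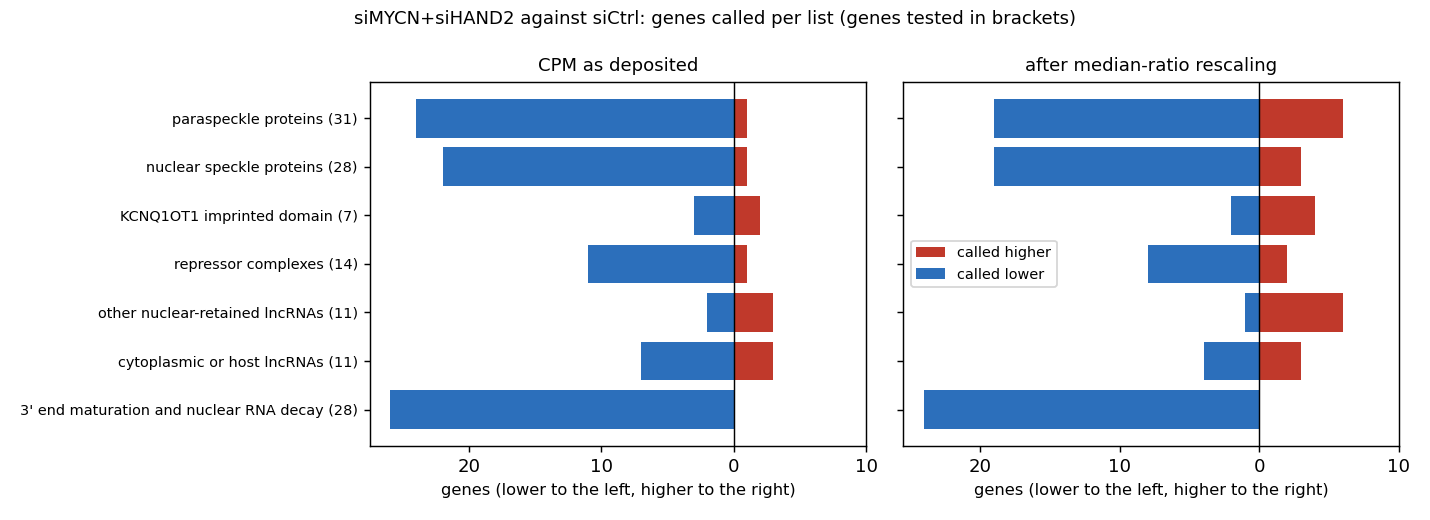
Number of genes called higher (to the right) and lower (to the left) in the combined knockdown against siCtrl for each fixed list (y axis, genes tested in brackets), with CPM as deposited and after median-ratio rescaling. The 3′ end and decay list has 26 genes lower as deposited and 24 after rescaling, and 0 higher in both.

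In the imprinted region around KCNQ1OT1, 7 of 15 genes were expressed enough to be tested. In the combined knockdown 2 were called higher and 3 lower, and 4 and 2 after rescaling. CDKN1C, a cell cycle inhibitor that KCNQ1OT1 silences on the paternal copy, had 4.13, 4.11 and 4.46 CPM in siCtrl and 7.68, 8.25 and 7.72 CPM in siMYCN. It had 7.82, 7.71 and 6.98 CPM in siHAND2 and 13.5, 10.8 and 8.31 CPM in the combined knockdown. All 9 knockdown samples of CDKN1C lay above siCtrl, a pattern shared by 9.87% of the genes tested. Its log2 differences were 0.76, 0.70 and 1.16 (limma adjusted p = 4.7e-05, 8.2e-05 and 1.3e-08). In siMYCN, KCNQ1OT1 overlapped its control level, with a log2 difference of 0.26 (SE 0.18). A link between the levels of CDKN1C and KCNQ1OT1 was not tested. SLC22A18, a transporter gene of the region named after its value was seen, was also called higher in each knockdown (0.78, 0.55 and 1.14). Its siCtrl level was low, at 0.765 CPM ± 0.179 (SD, n = 3). NAP1L4, CD81 and TSSC4 fell in the combined knockdown by 0.80, 0.56 and 0.41, and TSSC4 had −0.06 after rescaling. PHLDA2, another gene silenced in the region, was at a mean of 0.0996 CPM and was not tested. Allele of origin was not measured.

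Repressive chromatin factors of the kind recruited by KCNQ1OT1 were mostly lower in the combined knockdown. Of 14 tested, 1 was called higher and 2 lower with siMYCN, 1 and 5 with siHAND2, and 1 and 11 with both (2 and 8 after rescaling). UHRF1 and DNMT1, which maintain DNA methylation, fell by 1.79 and 1.33 in the combined knockdown, and EED and EZH2, subunits of Polycomb complex PRC2, by 1.24 and 1.06.

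Other long noncoding RNAs moved in both directions. Of 11 nuclear-retained ones tested, 3 were called higher and 1 lower with siMYCN, 4 and 1 with siHAND2, and 3 and 2 with both (6 and 1 after rescaling). MIAT, which forms a nuclear body of its own, had 18.0 CPM ± 1.98 with siCtrl, 30.3 ± 3.54 with siMYCN, 57.8 ± 14.5 with siHAND2 and 116 ± 10.9 with both siRNAs (SD, n = 3), a difference of 2.63 in the last (limma adjusted p = 4.7e-14). MEG3, an imprinted transcript, had 4.73 CPM ± 0.411, 10.4 ± 0.877, 41.5 ± 12.7 and 63.9 ± 12.6 in the same order. CRNDE fell by 0.77 in the combined knockdown. Of 11 cytoplasmic or snoRNA-host transcripts, 3 were called higher and 7 lower in the combined knockdown (3 and 4 after rescaling), with DANCR, SNHG8, OIP5-AS1 and SNHG1 lower by 0.82, 0.74, 0.57 and 0.55. SNHG1 lost its call after rescaling (−0.21, limma adjusted p = 0.094).

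Within 100 kb of MALAT1 or NEAT1, the genes tested other than TALAM1 differed from siCtrl by −0.67 to 0.70 in the combined knockdown, against 1.39 for MALAT1. FAM89B and LTBP3 were called higher in all 3 comparisons, with 0.70 and 0.64 in the combined knockdown. TIGD3 and EHBP1L1 were called higher with siMYCN and with both siRNAs, at 0.44 and 0.70 in the latter. SSSCA1, MAP3K11 and FRMD8 were called lower in the combined knockdown (−0.67, −0.49 and −0.37), and after rescaling MAP3K11 and FRMD8 had −0.15 and −0.04. DPF2 and SLC25A45 were not called in any of the 3 comparisons.

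Promoter windows came from RefSeq (GRCh38.p14) and covered MALAT1 with 2 windows of 300 bases. Neither held CACGTG, the E-box of MYC proteins, nor CATCTG or its other strand CAGATG, a motif of HAND and related factors. Each held a single CANNTG, a pattern that includes both. Of 35116 windows in the table, 7.26% held CACGTG, 14.7% CATCTG or CAGATG and 68.7% CANNTG. These counts say only which letters stand in the windows.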

How the data were processed

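RNA-seq values of 12 samples (4 groups of 3, grouped by title) came from 1 deposited table of 27514 genes. Per the submitters' processing notes, STAR 2.5.1 and Partek were used with the hg19 (GRCh37) build. The counting tool, strand use and annotation are not given in the sources used here. The authors deposited CPM values with a constant of 0.0001 added. Divided by the estimated step of 1 read, 88.9% to 90.5% of values below 20 reads were whole within 0.05, so the CPM were not treated as counts and no count test was run.

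Values were analysed as log2(CPM + 1), which understates changes of low genes, for the 12680 genes whose mean CPM reached 1. In R 4.3.3, limma 3.58.1 (eBayes with trend) fitted a model of the 4 groups that left 8 residual degrees of freedom. Tests were two-sided, with Benjamini-Hochberg adjustment over all genes tested and a threshold of 0.05. The script was tested on simulated data. The 95% intervals are for single genes and are not adjusted. Median-ratio rescaling and listed-sum rescaling divided samples by the median ratio to the gene means or by the summed CPM. Pairs of samples within groups differed by an average chi-square of 3.64 to 44.7 per gene, and none was counted as 1 library. The end coordinate of the table is 1 base past the last base, as checked on microRNA hairpins (93.1% of 1500), and was lowered by 1.

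The members and gene lists were chosen with earlier results of these data known. Named genes are the members, MYCN and HAND2, genes within 100 kb of a member, up to 4 called genes per list with the largest combined difference at a mean of at least 5 CPM, genes with a stated role for a member, and the 5 genes most like MALAT1 or KCNQ1OT1. A few genes that this rule names are not reported here. The list of mitochondrial mRNAs had 0 of 13 genes in the table. Alternatives were other pseudocounts, filters and scalings, leaving out each sample, only the 2 groups compared, and a replicate block. The sum of MALAT1 and TALAM1 and the scaling to unlisted reads, and the list counts without combined replicate 3, were chosen after seeing the data.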

Additional observations from a re-analysis of the deposited data

Results flagged for a closer look

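The interaction, the combined difference from siCtrl minus the sum of both single differences, was tested for genes other than the 3 transcripts. The median gene tested had an interaction of −0.18, and of −0.01 after median-ratio rescaling. UHRF1, which helps to maintain DNA methylation, had an interaction of −1.10 (limma adjusted p = 6.8e-04). Its means were 180 CPM with siCtrl, 182 with siMYCN, 110 with siHAND2 and 52.3 with both siRNAs, so the combined fall was larger than the sum of the single differences. SCN9A, a sodium channel gene whose pattern was among the 5 most like MALAT1, had an interaction of −0.75 (limma adjusted p = 0.010). Its means were 2.17, 10.2, 13.5 and 29.7 CPM in the same order, and the combined difference on the log2 scale was smaller than the sum of the single ones.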

How the results depend on the processing

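The MALAT1 differences from siCtrl kept their direction under all alternatives run, and so did those of KCNQ1OT1. In the combined knockdown MALAT1 moved from 1.39 to 1.75 with median-ratio rescaling, 1.74 with listed-sum rescaling and 0.92 per M unlisted reads, where KCNQ1OT1 had 1.01. NEAT1 in the combined knockdown had 0.20 with a pseudocount of 0.1, 0.12 and 0.17 with the rescalings and −0.047 per M unlisted reads. NEAT1 in siHAND2 had −0.40 with that pseudocount and −0.24 per M unlisted reads, on 3 to 5 reads a sample.

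Between knockdowns, without the filter on low levels MALAT1 in the combined knockdown against siMYCN stayed at 0.58 with an adjusted p of 0.076, KCNQ1OT1 against siHAND2 at 0.49 (0.31) and KCNQ1OT1 in siMYCN against siHAND2 at −0.70 (0.14). Per M unlisted reads the first 2 had 0.22 (adjusted p = 0.34) and 0.24 (adjusted p = 0.34). MALAT1 in the combined knockdown against siHAND2 passed at 0.54 and 0.56 with the rescalings. Leaving out 1 sample, it ranged from 0.23 to 0.47 and KCNQ1OT1 from 0.27 to 0.73. With only the 2 groups compared, 6963 genes were called in siMYCN against siCtrl and 6730 in siMYCN against siHAND2, against 4273 and 4443.

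The replicate numbers were not treated as pairing the samples: same-numbered samples of 2 groups had correlated deviations above 0.1 in 11 of 18 pairs (range −0.19 to 0.44), among them all 3 pairs of siMYCN with siCtrl and with siHAND2, and 1 of the 3 pairs of siHAND2 with the combined knockdown. With a replicate block the MALAT1 difference of the combined knockdown from siHAND2 passed (0.34, limma adjusted p = 0.031) and no other call of the 3 transcripts changed. The counts with the block were 4926, 6140 and 8951 genes against siCtrl. The numbers in the column labels ran replicate by replicate, and no label names a shared batch.

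Depth limits NEAT1, which rests on a few reads. The scale sets the size of the other differences and, between knockdowns, the 3 calls named above that changed with it.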
